A study of Mus musculus with 18 samples.

Results

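The genes described here encode subunits of the vacuolar H+-ATPase (V-ATPase) and the cathepsins, measured as RNA in the left ventricle of mice. Members were found by symbol, as genes whose name starts with Atp6v0 or Atp6v1 or is Cts with a single letter, and were kept where at least 3 libraries held 0.5 CPM (counts scaled to a common library size) or more. The symbols matched 41 of the 24421 genes in the count tables, 23 for the V-ATPase and 18 for cathepsins. Of these, 29 were members, 17 V-ATPase subunits and 12 cathepsins, and all 29 were among the 13859 genes tested.

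The study asked how age and loss of Sesn2, which encodes the stress-induced protein sestrin 2, alter the heart's answer to ischaemia and reperfusion (IR). RNA was sequenced from 18 left ventricles of C57BL/6 mice, 3 in each of 6 groups: wild-type (WT) mice of 3 to 4 months (young WT), WT mice of 24 to 26 months (aged WT) and Sesn2-knockout (Sesn2-KO) mice of 3 to 4 months, each after sham surgery or IR. For IR the LAD, a main artery of the left ventricle, was tied off for 45 min and flow was then restored for 24 h, whereas sham mice had the chest opened and nothing tied. Suppliers differed (Jackson for young WT, Charles River for aged WT, the authors' own breeding for Sesn2-KO), so supplier and age or genotype cannot be told apart.

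The V-ATPase is a rotary proton pump. Its cytosolic V1 sector hydrolyses ATP and its membrane V0 sector carries protons into lysosomes and endosomes, and the assembled pump is also part of the machinery by which lysosomal amino acids reach mTORC1, the kinase complex that sestrins restrain. Cathepsins are the proteases that this acidity favours: cysteine proteases (Ctsb, Ctsc, Ctsf, Ctsh, Ctsk, Ctsl, Ctso, Ctss, Ctsw and Ctsz), an aspartic protease (Ctsd) and a serine carboxypeptidase (Ctsa). Cardiomyocytes depend on them for autophagy, and macrophages, which enter the heart after injury, are rich in several of them.

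Many lysosomal genes carry the letters CACGTG near their start, the core of the element bound by the TFEB, TFE3 and MITF factors, so the members' promoters are shown for that core. RefSeq windows on GRCm38.p6, from 250 bases before to 50 bases after a gene's start, were held for 20 of the 29 members. For 18 of their 22 windows, bases after the start were found in an annotated transcript of the same gene. Distances are to the RefSeq start alone. No window was held for Atp6v0a2, Atp6v0d2, Atp6v1b2, Atp6v1c1, Atp6v1g1, Atp6v1h, Ctsb, Ctsh and Ctsw. CACGTG, which reads the same on both strands, was found in 8 of the 20 (40%), against 8.09% of 27025 genes with a window. By family these were 4 of 11 V-ATPase subunits and 4 of 9 cathepsins. The longer palindrome made of CACGTG with GT before it and AC after it, a form of the same element, was in 0 of 20 and in 0.37% of all genes. The windows around a match, with CACGTG in capitals, are shown 5′ to 3′ on the gene's strand for 3 V-ATPase subunits and 3 cathepsins, to let the flanks be compared.
Atp6v0b, chr4:117887350-117887375, minus strand, 36 bases before the start: gcgcgggggtCACGTGgggtcggcgc
Atp6v0b, chr4:117887332-117887357, minus strand, 18 bases before the start: gtcggcgcatCACGTGcgccggtcag
Atp6v0d1, chr8:105566052-105566077, minus strand, 3 bases before the start: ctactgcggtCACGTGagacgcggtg
Atp6v1a, chr16:44139375-44139400, minus strand, 131 bases before the start: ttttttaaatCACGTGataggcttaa
Ctsa, chr2:164833751-164833776, plus strand, 12 bases before the start: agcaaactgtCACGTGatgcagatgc
Ctsd, chr7:142387910-142387935, minus strand, 98 bases before the start: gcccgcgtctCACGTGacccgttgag
Ctsf, chr19:4855076-4855101, plus strand, 79 bases before the start: ccccgtggtcCACGTGcctcgcgtaa

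Ctsa holds another match that begins at base 6 from the start, and Ctsd another 245 bases before the start, which are not shown. The other members with a match were Atp6v0e and Ctsl. The gene called most often below, Ctsz, had 0 matches, and its 250 bases before the start (chr2:174439040-174439289, minus strand, 58.8% G or C) are printed for comparison in lower case.
Ctsz: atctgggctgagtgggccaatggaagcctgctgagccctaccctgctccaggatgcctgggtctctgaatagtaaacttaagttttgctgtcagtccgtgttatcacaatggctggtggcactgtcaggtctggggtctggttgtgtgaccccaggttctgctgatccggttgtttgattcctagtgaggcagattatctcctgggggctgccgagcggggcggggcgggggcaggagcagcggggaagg

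Libraries held 9404531 to 14458047 gene counts. Sesn2 was at 2.56 to 5.96 CPM in the 12 WT libraries and at 0 to 5 counts (at most 0.371 CPM) in the 6 Sesn2-KO libraries, as labelled. In 6 libraries, 1 in each group, long transcripts stood higher and short ones lower than in the rest of the group (Spearman rho of a gene's log2 deviation from its group mean with transcript length 0.314 to 0.480 over 13344 genes, against -0.429 to -0.0151 in the other 12). These are called length-tilted here: replicate 1 of young sham and aged sham and replicate 3 of the other 4 groups. The slope of log2 CPM on log2 transcript length was 0.0842 to 0.304 in young sham and 0.114 to 0.272 in aged sham libraries. It was 0.0644 to 0.209 in young IR and 0.0149 to 0.186 in aged IR libraries. In Sesn2-KO it was 0.0441 to 0.233 in sham and 0.00417 to 0.197 in IR libraries. These ranges overlapped, with both ends higher in the WT sham groups, so length slope and group cannot be fully told apart. The 11 cardiomyocyte markers summed to between 37980 and 57220 CPM in every library. The 4 atrial markers (Myl7, Nppa, Sln and Myl4) summed to 148 to 1691 CPM and were highest in the Sesn2-KO IR libraries, at 860 to 1691. Nppa made most of their counts, with 108473 over the 18 libraries, against 4637 for Myl7, 1519 for Sln and 5420 for Myl4. All the libraries are of whole tissue, so fewer cells of a type and less RNA per cell cannot be told apart.

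Levels of the members differed widely. A level is a CPM scaled by library size, and between genes it is compared per kilobase of the longest annotated transcript, which need not be the one the heart uses. Ctsd, the main aspartic protease of lysosomes, stood at 696 ± 43.1 CPM per kb (SD over 18 libraries). Ctsb, a cysteine protease with both endo- and carboxypeptidase activity, followed at 164 CPM per kb. Ctsz, Ctss, Ctsa and Ctsl lay close together at 61.9, 59.5, 54.7 and 50.6 CPM per kb, within their SDs of one another. Ctsc, Ctsf and Ctsh stood at 27.8 to 31.2 CPM per kb, and Ctso and Ctsk at 11.9 and 9.05.

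Among V-ATPase subunits, Atp6v1g1, a stator subunit, stood at 146 CPM per kb, Atp6v0b, a proteolipid of the rotor ring, at 130 and Atp6v1f, part of the central stalk, at 105. Subunits of the catalytic head differed from each other: Atp6v1b2 stood at 49.5 CPM per kb and Atp6v1a, its partner that hydrolyses ATP, at 10.7. The 3 isoforms of the large membrane subunit a among the members were ordered Atp6v0a1 (24.2 CPM per kb), Atp6v0a2 (18.3) and Atp6v0a4 (0.172), the last being an isoform of kidney and epididymis. The a3 isoform, Tcirg1, does not match the symbols and is not in this order. It was expressed too, at 15.7 to 40.3 CPM, against 0.148 to 1.13 CPM for Atp6v0a4. Of the d isoforms, Atp6v0d1 stood at 41.6 CPM per kb and Atp6v0d2, known from osteoclasts and macrophages, at 0.358.

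**Figure D1:**
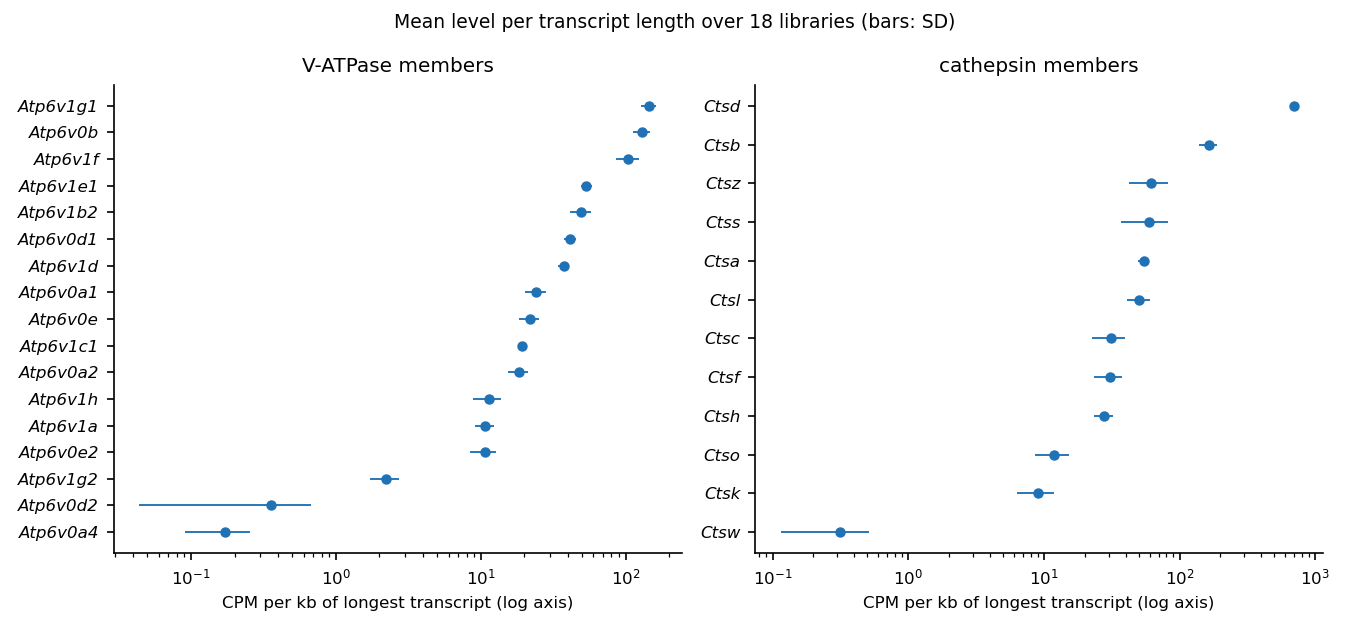
Mean level of each member over the 18 libraries in CPM per kb of its longest transcript, on a log axis, with the SD as bars, for V-ATPase subunits (left) and cathepsins (right). Ctsd at 696 CPM per kb stands above all others, and Atp6v0d2, Atp6v0a4 and Ctsw lie below 1 CPM per kb.

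The 12 matching genes that were not members were at or near 0. Atp6v0c, which encodes the main proteolipid of the rotor ring, was listed at 0 counts in 16 libraries and 1 in each of the other 2, and with a processed copy in the same tables (Atp6v0c-ps2, 0 counts in all) its value is uncertain. The kidney isoforms Atp6v1b1, Atp6v1c2 and Atp6v1g3 and the testis isoform Atp6v1e2 held at most 3 counts in any library. Ctsg, a granule protease of neutrophils and mast cells, held 1 count in all. Ctse, an aspartic protease of gastric and immune cells, was just outside the limit, with 0.5 CPM in 2 libraries. Ctsj, Ctsm, Ctsq and Ctsr, placental cathepsins of rodents, held 1 to 11 counts over the 18 libraries. Just inside were Ctsw (7 libraries), Atp6v0a4 (8) and Atp6v0d2 (12).

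Over the 9 comparisons, 6 of 261 tests of a member passed an adjusted p of 0.05 (edgeR, Benjamini-Hochberg over all genes of a comparison), which is 2.3%, beside 2.17% of all gene tests. They fell on 4 members, Ctsz, Ctsc, Atp6v1h and Atp6v0d2, in 3 comparisons, and all 6 were higher. The other 25 members were called in no comparison. In the group means, young sham hearts were lowest of the 6 groups for 15 of the 29 members (8 V-ATPase subunits and 7 cathepsins). Sesn2-KO IR hearts were highest for 10 members, 6 of them cathepsins, and Sesn2-KO sham hearts for 8. These counts are a description, since group means were compared without their error. The matching shares of all genes were not counted, so the counts are not shown to be particular to the members.

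**Figure D2:**
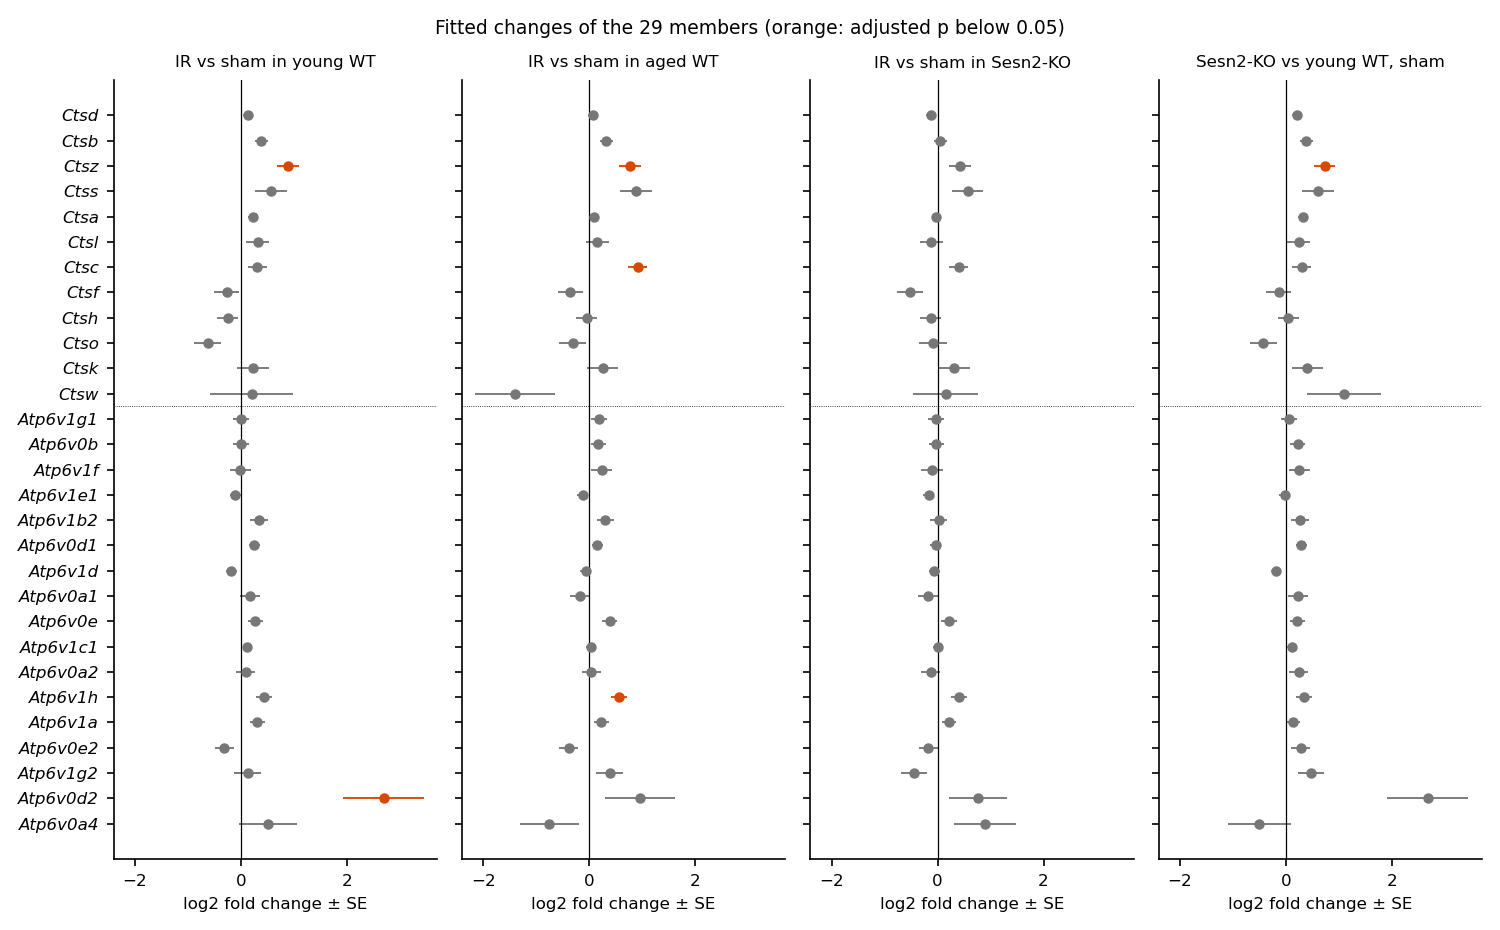
Fitted log2 fold change with its standard error (SE) of the 29 members in 4 comparisons, cathepsins above and V-ATPase subunits below, ordered by level per kb. Orange marks an adjusted p below 0.05: Ctsz and Atp6v0d2 in young WT, Ctsz, Ctsc and Atp6v1h in aged WT, none in Sesn2-KO, and Ctsz between the sham groups.

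In young WT hearts, IR raised Ctsz and Atp6v0d2. Ctsz, the carboxypeptidase also called cathepsin X, stood at 47.1, 59.5 and 57.9 CPM in the sham libraries and at 74.8, 121 and 108 CPM after IR. The groups did not overlap, although the lowest IR library stood well below the other 2. The log2 fold change was 0.89 ± 0.20 (SE, adjusted p = 0.0181). Atp6v0d2, the second d isoform of the V0 stalk, stood at 0.139, 0.237 and 0.0831 CPM after sham surgery (2, 3 and 1 counts) and at 0.512, 1.57 and 1.03 CPM after IR (6, 21 and 11 counts). Its groups did not overlap, and its log2 fold change was 2.70 ± 0.77 (adjusted p = 0.0485), on few counts. Atp6v0d2 reached 0.5 CPM in no young sham library, and it entered the test through the other groups.

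That made 2 of 29 members called in young WT, and 6.07% of all genes were called there (4.17% higher, 1.9% lower), so the members' share was near that of all genes. CPM of the IR libraries lay above all sham libraries for 9 members (12.6% of all genes) and below for 1 (10.6% of all genes). The median log2 fold change was 0.20 over the members and 0.01 over all genes, and 22 members were above 0. At an unadjusted p below 0.05 stood 8 members (27.6%), against 21% of all genes. DESeq2 called 3 members (9.51% of all genes) and limma voom 10 (19% of all genes), 2 of them lower.

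Several members of young WT hearts that missed the threshold had IR libraries above all sham libraries. Ctsb stood at 627 to 673 CPM after sham surgery and at 722 to 946 CPM after IR (log2 fold change 0.39 ± 0.12, adjusted p = 0.0761). Atp6v1h, the H subunit of the V1 sector, stood at 35.8, 42.6 and 46.1 CPM in sham and at 51.0, 56.0 and 62.6 CPM in IR libraries (0.45 ± 0.15, adjusted p = 0.0911). Neither gene's groups overlapped. Ctsa, which also protects other lysosomal enzymes as a complex partner, stood at 173, 177 and 173 CPM in sham and at 198, 214 and 202 CPM in IR libraries (0.23 ± 0.09, adjusted p = 0.155). Atp6v0d1, the common d isoform, stood at 56.4, 62.8 and 59.3 CPM and at 71.0, 75.7 and 66.3 CPM (0.26 ± 0.10, adjusted p = 0.158). Ctsa and Atp6v0d1 likewise had groups that did not overlap. Ctso, a little-studied cysteine protease, had the lowest value, -0.63 ± 0.26 (adjusted p = 0.174), with overlapping groups.

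The calls in young WT depended on which libraries were included. The Ctsz call was lost without young sham 1 or 3 or young IR 2 or 3 (adjusted p = 0.0886, 0.0535, 0.0857 and 0.0780), and the log2 fold change ranged from 0.74 to 1.07 over the 6 libraries left out in turn. The Atp6v0d2 call held without young IR 1 (adjusted p = 0.0236) and was lost without each of the other 5 libraries (up to 0.197). With all 6 length-tilted libraries left out, Ctsz stood at 0.72 (adjusted p = 0.269) and Atp6v0d2 at 2.61 (0.383), in a fit with 2 libraries a group that called 16 genes in all.

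In aged WT hearts, IR raised Ctsc, Ctsz and Atp6v1h. Ctsc, dipeptidyl peptidase I, which activates the granule proteases of neutrophils, mast cells and cytotoxic lymphocytes, stood at 60.1, 76.6 and 55.6 CPM in sham libraries and at 160, 101 and 102 CPM in IR libraries. The groups did not overlap, and aged IR 1 was well above the other 2. The log2 fold change was 0.91 ± 0.18 (adjusted p = 0.00729). Ctsz stood at 50.3, 79.6 and 54.0 CPM after sham surgery and at 132, 95.2 and 86.3 CPM after IR (0.77 ± 0.20, adjusted p = 0.0311), again without overlap. Atp6v1h, whose product couples V1 to V0 and silences free V1, stood at 38.5, 46.6 and 47.7 CPM and at 76.3, 58.5 and 60.1 CPM (0.56 ± 0.15, adjusted p = 0.0341). For it too, every IR library was above every sham library.

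These were 3 of 29 members called, and 7.61% of all genes were called in aged WT (5.36% higher, 2.24% lower). CPM did not overlap for 8 members with IR higher (16.5% of all genes) and for 4 with IR lower (12.4% of all genes). The median log2 fold change was 0.15 over the members and 0.00 over all genes, and 7 members (24.1%) had an unadjusted p below 0.05, against 23.7% of all genes. DESeq2 called 4 members (11.3% of all genes) and limma voom 8 (24.8% of all genes). Ctss, a cysteine protease of antigen-presenting cells, was next with 44.1, 76.8 and 52.2 CPM against 146, 72.1 and 100 CPM (0.88 ± 0.30, adjusted p = 0.0842), and its groups overlapped.

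Of the calls in aged WT, Ctsc was lost without aged sham 1 (adjusted p = 0.0517), and its log2 fold change fell to 0.65 without aged IR 1 (0.0489). Ctsz was lost without aged sham 1 or 3 or aged IR 1 (0.167, 0.120 and 0.183), and Atp6v1h was kept without aged IR 2 (0.0323) and lost without each of the other 5 libraries (up to 0.204). Without the 6 length-tilted libraries the log2 fold changes were 0.95 for Ctsc (adjusted p = 0.0781), 0.74 for Ctsz (0.162) and 0.49 for Atp6v1h (0.138).

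In Sesn2-KO hearts no member passed the test after IR. The edgeR quasi-likelihood test called 0 of 29 members, as it called 0% of all genes, and 3 members had an unadjusted p below 0.05 (10.3%, against 14.7% of all genes). DESeq2 called 0 members (0.945% of all genes) and limma voom 1, Ctsf, lower (8.9% of all genes). The smallest p belonged to Atp6v1h, at 53.5, 59.9 and 44.9 CPM in sham and 64.1, 80.9 and 63.7 CPM in IR libraries (log2 fold change 0.40 ± 0.15, adjusted p = 0.243). Its groups did not overlap. Ctsc stood at 99.6, 110 and 92.3 CPM and at 130, 147 and 123 CPM (0.40 ± 0.18, adjusted p = 0.310), and Ctsz at 94.3, 93.6 and 84.5 CPM and at 138, 121 and 107 CPM (0.43 ± 0.20, adjusted p = 0.341). These 2 also did not overlap between the groups.

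The Sesn2-KO IR libraries were above all Sesn2-KO sham libraries for 5 members (10% of all genes) and below for 2 (7.65% of all genes). The median log2 fold change was -0.03 over the members and 0.00 over all genes. Ctsf, a cysteine protease, stood at 64.3, 74.0 and 62.0 CPM in sham and at 66.0, 33.6 and 40.7 CPM in IR libraries (-0.52 ± 0.24, adjusted p = 0.337). Sesn2-KO IR 1 lay among the sham libraries, so the groups overlapped.

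Between the sham groups, Ctsz was higher in Sesn2-KO than in young WT hearts. The Sesn2-KO sham libraries at 94.3, 93.6 and 84.5 CPM lay above all young sham libraries at 47.1, 59.5 and 57.9 CPM, with a log2 fold change of 0.73 ± 0.20 (adjusted p = 0.0495). Close to the threshold were Atp6v0d2, at 0.872, 1.57 and 0.667 CPM in Sesn2-KO sham libraries (2.68 ± 0.76, adjusted p = 0.0529), and Ctsa, at 216, 220 and 217 CPM (0.32 ± 0.09, adjusted p = 0.0555). Neither overlapped with its young sham values given above. Ctsb stood at 742, 860 and 912 CPM (0.38 ± 0.12, adjusted p = 0.0890), and Atp6v0d1 at 75.2, 75.3 and 67.5 CPM (0.29 ± 0.10, adjusted p = 0.123).

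The test called 1 of 29 members, against 5.11% of all genes (3.32% higher, 1.79% lower). CPM of the Sesn2-KO libraries lay above all young libraries for 9 members (15.1% of all genes), 7 of them cathepsins, and below for 0 (10.6% of all genes). The median log2 fold change was 0.24 over the members and 0.02 over all genes, 24 members were above 0, and 7 (24.1%) had an unadjusted p below 0.05, against 19% of all genes. DESeq2 called 4 members (8.02% of all genes), Ctsz, Ctsa, Ctsb and Atp6v0d2, and limma voom 6 (15.7% of all genes). The Ctsz call was lost without any 1 of the 6 libraries: leaving out young sham 1, 2 or 3 gave an adjusted p of 0.189, 0.0863 or 0.112, and leaving out Sesn2-KO sham 1, 2 or 3 gave 0.137, 0.130 or 0.0774. It stood at 0.66 (adjusted p = 0.236) without the 6 length-tilted libraries. This comparison and that of IR in young WT share the 3 young sham libraries.

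**Figure D3:**
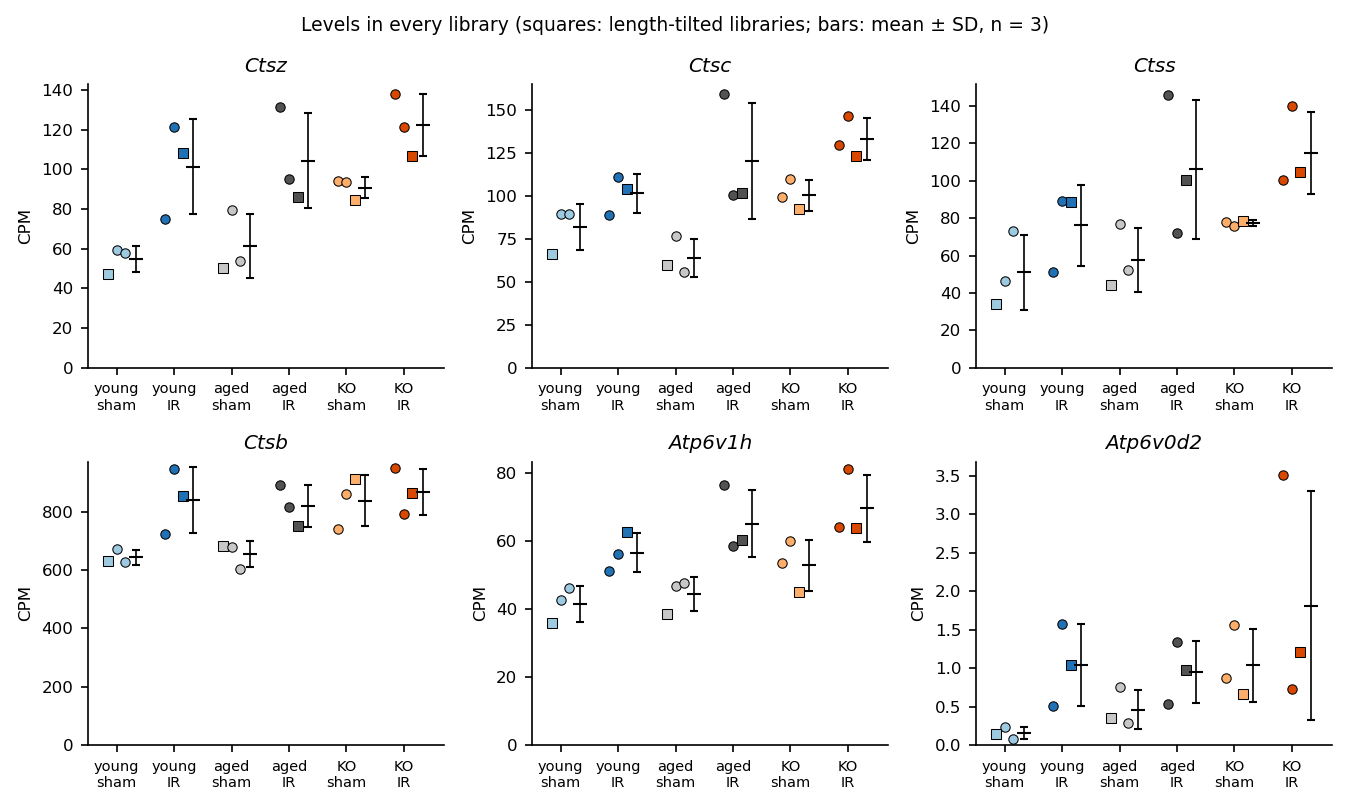
CPM in every library of 6 members by group (points: libraries, squares: length-tilted libraries; bars: mean ± SD, n = 3). For Ctsz the young sham libraries at 47.1 to 59.5 CPM lie below every library of both IR WT groups and both Sesn2-KO groups, and for Atp6v0d2 1 Sesn2-KO IR library at 3.51 CPM stands above all others.

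No member passed the test between the ages. Between aged and young sham hearts edgeR called 0 of 29 members (0.152% of all genes, 0.144% higher and 0.00722% lower), 1 had an unadjusted p below 0.05 (4.44% of all genes), and DESeq2 and limma voom called 0 (0.317% and 1.33% of all genes). That 1 was Atp6v0e2, an isoform of a small membrane subunit, at 23.3, 22.2 and 24.6 CPM in aged and 18.4, 17.3 and 17.7 CPM in young sham libraries (log2 fold change 0.39 ± 0.18, adjusted p = 1). The groups did not overlap. In all, 5 members lay higher in every aged library (6.32% of all genes) and 0 lower (6% of all genes), and the median was 0.09 against -0.01 over all genes.

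After IR, edgeR called 0 of 29 members between the aged and young WT groups (0.0649% of all genes), with 0 at an unadjusted p below 0.05 (3.99% of all genes) and 0 by DESeq2 and limma voom (0.238% and 0.13% of all genes). CPM did not overlap for 1 member higher in aged hearts (3.45% of all genes), Atp6v1g2, a G isoform of brain at 4.93, 4.70 and 5.92 CPM against 4.61, 3.89 and 3.10 CPM. It did not overlap for 1 member lower (3.85% of all genes), Atp6v0a4, at 0.455, 0.448 and 0.442 CPM against 0.512, 0.524 and 1.13 CPM. Their adjusted p was 1.

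Sesn2-KO and young WT hearts after IR also had 0 of 29 members called by edgeR (0.433% of all genes), with 2 at an unadjusted p below 0.05, Atp6v0e2 and Ctsc (12.7% of all genes), and 0 by DESeq2 and limma voom (1.86% and 1.65% of all genes). Ctsc at 130, 147 and 123 CPM lay above the young IR libraries at 89.3, 111 and 104 CPM (0.39 ± 0.18, adjusted p = 0.382). In all, 3 members lay higher without overlap (7.01% of all genes), Ctsc, Atp6v1h and Ctss, and 0 lower (5.79% of all genes).

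Differences between the IR responses were tested as interaction terms. For aged minus young WT edgeR called 0 of 29 members (0% of all genes), 1 had an unadjusted p below 0.05 (1.1% of all genes), and DESeq2 and limma voom called 0 (0% of all genes by each). That 1 was Ctsc, with a difference of 0.60 ± 0.25 on the log2 scale (adjusted p = 1). Ctsz, called in both groups, had a difference of -0.12 ± 0.29, with an unadjusted 95% interval from -0.73 to 0.49.

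For Sesn2-KO minus young WT edgeR called 0 of 29 members (0.0577% of all genes), 0 had an unadjusted p below 0.05 (5.55% of all genes), and DESeq2 and limma voom called 0 (0.216% and 0.0938% of all genes). The median difference was -0.09 over the members and -0.03 over all genes, and 22 members were below 0. The difference was -0.46 for Ctsz (unadjusted 95% interval -1.07 to 0.15, adjusted p = 0.998) and -1.94 for Atp6v0d2 (-3.98 to 0.10, adjusted p = 0.908). The absence of calls in Sesn2-KO hearts after IR is therefore not shown to be a difference in response. Ctsa stood at 232, 210 and 200 CPM in Sesn2-KO IR libraries, which overlapped with its Sesn2-KO sham libraries at 216 to 220 CPM.

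The remaining values of the leading members complete the picture across groups. Ctsc stood at 66.4, 89.4 and 89.8 CPM in young sham libraries, which overlapped with its young IR libraries (0.31 ± 0.18, adjusted p = 0.347). Ctsa stood at 183, 200 and 176 CPM in aged sham and at 218, 194 and 186 CPM in aged IR libraries, with overlap (0.10 ± 0.09, adjusted p = 0.552). Atp6v0d1 stood at 58.9, 66.3 and 63.4 CPM in aged sham and at 72.2, 70.7 and 66.5 CPM in aged IR libraries, the lowest IR library lying just above the highest sham library (0.15 ± 0.10, adjusted p = 0.400). In Sesn2-KO IR libraries Atp6v0d1 stood at 74.7, 77.6 and 60.5 CPM, overlapping with its Sesn2-KO sham values.

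Ctsk, the collagen-degrading protease of osteoclasts, also made by fibroblasts, stood at 9.56, 11.9 and 10.3 CPM in young sham and 8.11, 16.3 and 12.8 CPM in young IR libraries. In aged hearts it stood at 11.1, 14.9 and 11.5 CPM after sham surgery and at 17.7, 16.7 and 10.5 CPM after IR, and in Sesn2-KO hearts at 16.3, 14.7 and 11.1 CPM and at 26.5, 12.7 and 13.5 CPM. The IR and sham libraries overlapped in each genotype and age, and no comparison called it. Ctsw, a protease of cytotoxic T and NK cells, held 0 to 15 counts in a library, with group sums of 12 and 13 counts in young sham and IR hearts, 25 and 8 in aged hearts and 27 in each Sesn2-KO group. Its aged IR libraries at 0.303, 0.336 and 0.0883 CPM lay below the aged sham libraries at 0.418, 1.13 and 0.378 CPM (log2 fold change -1.40 ± 0.76, adjusted p = 0.283).

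Atp6v0d2 had its highest value in 1 Sesn2-KO IR library. Its CPM was 0.348, 0.751 and 0.284 in aged sham, 0.531, 1.34 and 0.972 in aged IR and 3.51, 0.724 and 1.20 in Sesn2-KO IR libraries (35, 9 and 17 counts in the last). Every other group stood above the young sham libraries, which held 6 counts in all. Atp6v0a4 held 2 to 14 counts in a library and 14 to 29 in a group, with its lowest group mean in Sesn2-KO sham hearts. At such counts small differences were not detectable.

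The length-tilted libraries stood apart for several members. Atp6v0a1, Atp6v0a2 and Atp6v1b2 (longest transcripts of 4162, 5345 and 2825 bases) stood above their group's mean in all 6, as did 17.7% of all genes, and 11 members stood below it in all 6, as did 16.3% of all genes: Atp6v0b, Atp6v0d1, Atp6v0e, Atp6v1e1, Atp6v1f, Atp6v1g1, Ctsa, Ctsh, Ctsl, Ctso and Ctsw. By longest annotated transcript these were not all short, with 6168 bases for Ctsl, the most of the members, and 3468 for Ctso. That transcript need not be the one the heart uses. Atp6v0a1, for example, stood at 140 CPM in the length-tilted Sesn2-KO sham library and at 88.2 and 98.9 CPM in the other 2, and Atp6v1f at 76.7 CPM against 100.4 and 106 CPM. With each library's length slope as a covariate, chosen after seeing the data, 7 members were called in young WT (5 higher, 2 lower), 7 in aged WT (4 higher, 3 lower) and 6 between the sham groups (5 higher, 1 lower). These counts were read against 2020, 2121 and 1680 genes called in all under that setting.

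**Figure D4:**
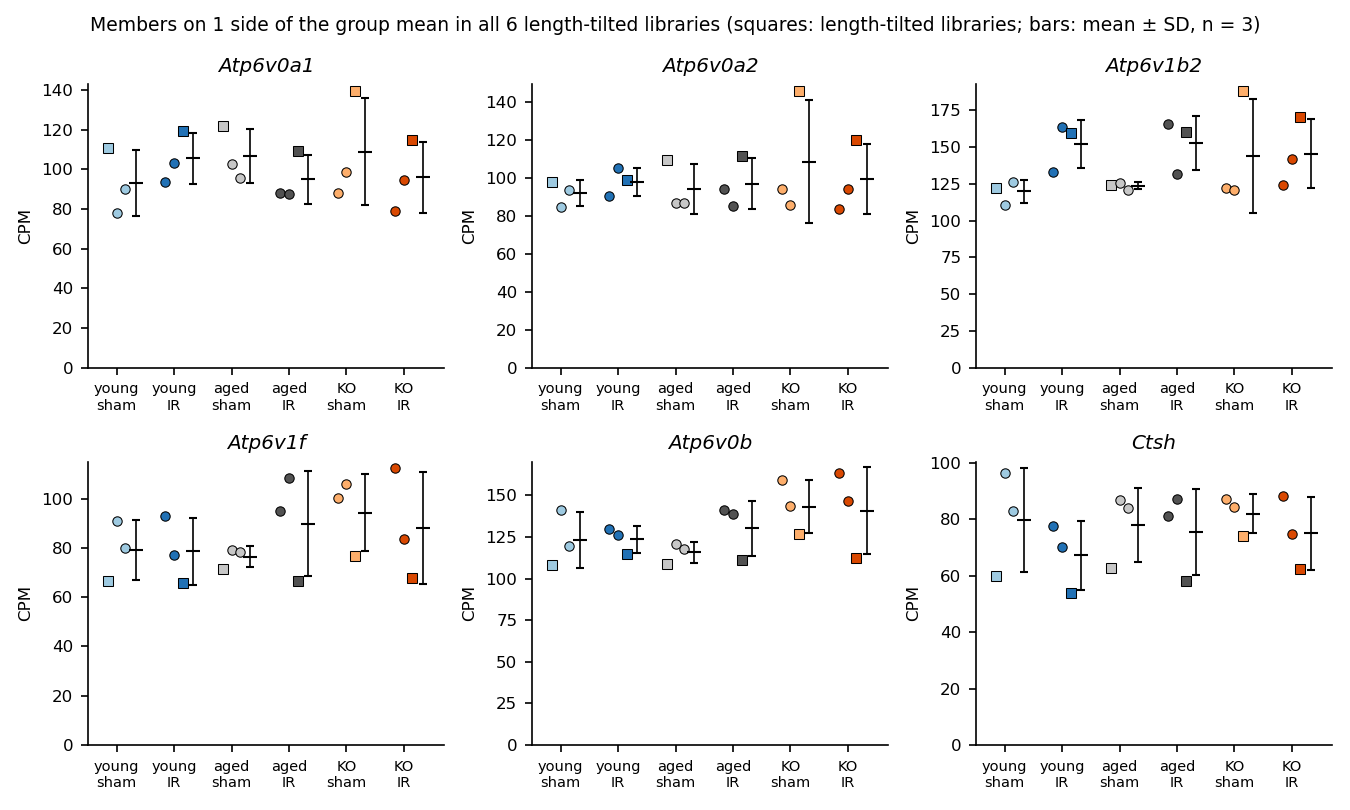
CPM in every library of 6 members that lay on 1 side of their group's mean in all 6 length-tilted libraries (squares), with bars for the mean ± SD (n = 3). Squares are above the mean for Atp6v0a1, Atp6v0a2 and Atp6v1b2 and below it for Atp6v1f, Atp6v0b and Ctsh.

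Summed over members, both families had their lowest mean in young sham hearts. The 12 cathepsins summed to 2859 ± 83.0 CPM (SD, n = 3) in young sham, 3336 ± 83.9 in young IR, 3011 ± 188 in aged sham, 3432 ± 284 in aged IR, 3416 ± 138 in Sesn2-KO sham and 3357 ± 208 in Sesn2-KO IR hearts. Young IR (3239 to 3389) and Sesn2-KO sham libraries (3263 to 3529) lay above all young sham libraries (2765 to 2923), and the aged groups overlapped. Ctsd and Ctsb made most of these sums, and the other 10 cathepsins summed to 853 ± 72.5 CPM in young sham and 1059 ± 127 in Sesn2-KO IR hearts, the lowest and the highest of the group means. The 17 V-ATPase subunits summed to 1286 ± 55.6 CPM in young sham and 1412 ± 12.6 in Sesn2-KO sham hearts, the lowest and the highest means. The 8 V0 subunits alone stood at 433 to 446 CPM in young sham and at 496 to 552 CPM in Sesn2-KO sham libraries, without overlap, while the 9 V1 subunits overlapped (785 to 881 and 873 to 908). After IR the V0 sums stood at 469.8 to 490.5 CPM in young WT, 468 to 493 in aged WT and 489 to 508 in Sesn2-KO hearts. All of these lay above the young sham libraries, which are the matching sham group for young WT alone. Against their own sham libraries, aged IR sums lay only just above (lowest 468.1, highest sham 467.9 CPM). Sesn2-KO IR sums overlapped with Sesn2-KO sham and had the lower mean (499.8 against 517.5 CPM). No share over all genes stands beside these sums. The V0 sums of aged sham libraries (442 to 468 CPM) overlapped with young sham. Atp6v0c, not a member, is not in these sums.

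**Figure D5:**
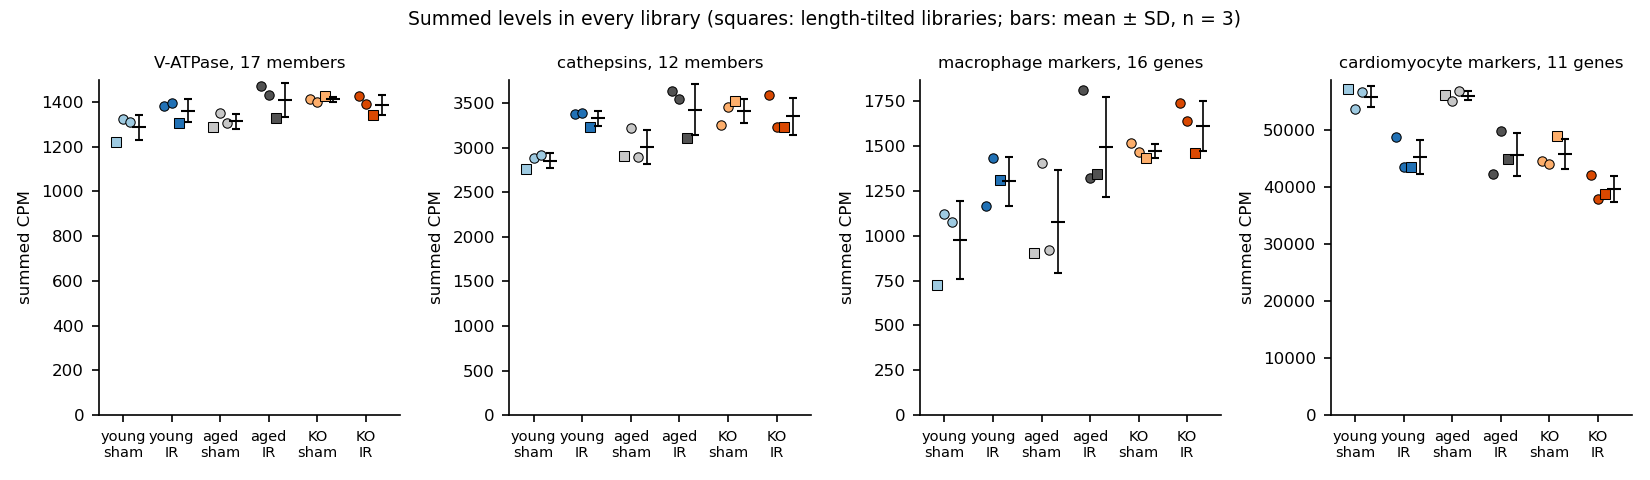
Summed CPM in every library of the V-ATPase members, the cathepsin members, 16 macrophage markers and 11 cardiomyocyte markers by group (squares: length-tilted libraries; bars: mean ± SD, n = 3). The cathepsin sums are lowest in young sham hearts (2765 to 2923 CPM), as are the macrophage marker means (975 CPM), and cardiomyocyte markers are highest in young and aged sham hearts.

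Markers of other cells moved in the same comparisons. The 16 macrophage markers summed to 725 to 1121 CPM in young sham, 1163 to 1432 in young IR, 904 to 1408 in aged sham, 1323 to 1814 in aged IR, 1436 to 1516 in Sesn2-KO sham and 1461 to 1738 in Sesn2-KO IR libraries. Of the 16, 5 were called higher in young WT after IR (4.17% of all genes), 5 in aged WT (5.36%), 5 between the sham groups (3.32%) and 0 in Sesn2-KO after IR (0%), with Msr1, a scavenger receptor, at 2.19, 1.99, 1.63 and 0.99 (uncalled). The library highest for these markers was also highest for Ctsz and Ctsc in both aged groups (aged sham 2, at 1408 CPM, and aged IR 1, at 1814 CPM). In both Sesn2-KO groups the markers and Ctsz were highest in replicate 1 and Ctsc in replicate 2. In young sham the markers and Ctsz were highest in replicate 2 and Ctsc in replicate 3, and in young IR all were highest in replicate 2. Except in young IR, the library highest for the markers also had the lowest Spearman rho with transcript length in its group (-0.429 in young sham 2 to -0.231 in Sesn2-KO IR 1). The part of cells or of length in these matches was not tested.

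Of 12 neutrophil markers 8 were tested and all 8 were called higher in young IR (4.17% of all genes), aged IR (5.36%) and Sesn2-KO sham hearts (3.32%). Genes this low in young sham hearts can enter the test through the groups where they are higher, so 8 of 8 may partly reflect the filter. Cxcr2, Mmp8 and Il1r2 were each at 0 in 1 library. The 12 markers summed to 6.03 to 7.90 CPM in young sham, 61.0 to 126 in young IR, 6.2 to 19.98 in aged sham, 103 to 176 in aged IR, 33.5 to 87.7 in Sesn2-KO sham and 86.6 to 163 in Sesn2-KO IR libraries. Elane, a defining protease of early neutrophils, was at 0 in all, and Camp and Mpo were at 0 in 11 and 13 libraries. Of 8 fibroblast markers 4 were called higher in young WT and 3 in aged WT after IR, and 0 in both Sesn2-KO comparisons, beside the same shares of all genes. Their sums ran from 1531 to 2199 CPM in WT sham and from 1912 to 4192 CPM in WT IR libraries. Of 11 cardiomyocyte markers 1 (Mybpc3) was called lower in young WT (1.9% of all genes) and 2 (Mybpc3 and Myh6) in aged WT (2.24%). In the Sesn2-KO comparisons 0 were called lower (0% of all genes after IR and 1.79% between the sham groups). The Mybpc3 calls were lost without young sham 1 or 3 (adjusted p = 0.0506 and 0.0579) and without aged IR 1 (0.0660), and the Myh6 call without any library but aged IR 2 (0.0663 to 0.136). The summed cardiomyocyte level was 53750 to 57220 CPM in WT sham and 37980 to 49940 CPM in the other 4 groups. The part of these cells in the members' changes was not tested.

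Of 8 endothelial markers 1, Kdr, was called lower in young WT (1.9% of all genes), in aged WT (2.24%) and between the sham groups (1.79%). The aged call was lost without any 1 of the 6 libraries (adjusted p = 0.0669 to 0.114). Of the 4 T and NK cell markers tested 1, Cd3g, was called higher between the sham groups (2.42, adjusted p = 0.0307), a call lost without any library but Sesn2-KO sham 3 (0.0558 to 0.134). By edgeR 0 of 5 mast cell markers and 0 of 4 atrial markers were called in these 4 comparisons. At an unadjusted p below 0.05 stood 0, 1, 0 and 2 mast cell markers and 3, 2, 4 and 0 atrial markers in young WT, aged WT and Sesn2-KO after IR and between the sham groups. The atrial markers did not move alike: 1, 1, 4 and 1 of the 4 had a log2 fold change above 0. Their medians were -3.69, -3.46, 2.97 and -0.50 in the same order. DESeq2 called 0 mast cell markers in each, limma voom 0, 1, 0 and 1, and for the atrial markers DESeq2 called 1, 1, 0 and 0 and limma voom 0, 0, 1 and 0. In Sesn2-KO hearts after IR, where edgeR called 0 of every marker list, 4 macrophage, 4 neutrophil, 2 cardiomyocyte and 0 fibroblast markers had an unadjusted p below 0.05, DESeq2 called 0, 2, 0 and 0 of them and limma voom 2, 4, 1 and 0.

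Genes that build or regulate the V-ATPase were not called. Of 14 tested partners (accessory subunits, assembly factors and the a3 isoform Tcirg1), 0 were called by edgeR in any of the 4 comparisons, with 1, 5, 2 and 3 at an unadjusted p below 0.05 in young WT, aged WT and Sesn2-KO after IR and between the sham groups. DESeq2 called 0 in each, and limma voom 1, 4, 0 and 3. Tcirg1, the a isoform of osteoclasts and immune cells, stood at 15.7, 24.9 and 21.2 CPM in aged sham and 34.9, 25.4 and 27.9 CPM in aged IR libraries, without overlap (log2 fold change 0.52, adjusted p = 0.0864). Atp6ap2, the accessory subunit also known as the prorenin receptor, had 0.27, 0.33 and 0.35 in young WT, in aged WT and between the sham groups (adjusted p = 0.233, 0.130 and 0.135).

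Among 13 tested inhibitors of cathepsins and related proteases, 4 were higher in young WT after IR (4.17% of all genes), 4 in aged WT (5.36%), 0 in Sesn2-KO (0%) and 2 between the sham groups (3.32%), and 0 were lower. Serpina3n, a secreted inhibitor of serine proteases that include cathepsin G, rose by 4.04 in young WT and by 3.63 in aged WT and was higher by 5.31 between the sham groups (adjusted p = 2.76e-05, 3.75e-05 and 1.26e-06), all log2. Its response to IR differed between Sesn2-KO and young WT by -4.26 (adjusted p = 0.000711). Serpinb1a, an inhibitor of neutrophil serine proteases, had 2.56, 2.82 and 2.16 (adjusted p = 0.00168, 0.000918 and 0.00498). Cstb, the cytosolic cystatin that binds cysteine cathepsins, rose by 1.02 in aged WT (adjusted p = 0.0115), a call lost without aged sham 1 (0.0752) or aged IR 1 (0.0793). Cst3, the secreted cystatin, was not called in aged WT (0.41, adjusted p = 0.254).

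Of 41 other lysosomal hydrolases tested, 4 were higher in young WT after IR, 3 in aged WT, 0 in Sesn2-KO and 4 between the sham groups, and 0 were lower, beside the shares of all genes just given. Their median log2 fold changes were 0.06, 0.06, -0.02 and 0.13. Lgmn, the asparaginyl endopeptidase that processes cathepsins, stood at 0.80, 0.84 and 0.72 (adjusted p = 0.0112, 0.00769 and 0.0219) in the first, second and last of these. Its call was lost without young IR 2 or 3 in young WT (0.0510 and 0.0579), without aged IR 1 in aged WT (0.0660), and without any sham library but Sesn2-KO sham 1 between the sham groups (0.0623 to 0.0802). Acp5, the acid phosphatase of osteoclasts and macrophages, was higher by 1.39 in aged WT after IR (0.0284) and by 1.42 between the sham groups (0.0409). Of the aged libraries, leaving out replicate 1 or 3 of either group ended its call (0.0585 to 0.160), and the sham call was lost without any sham library but Sesn2-KO sham 3 (0.0861 to 0.149). Of 36 genes of the lysosomal membrane and of sorting, 3 were higher in young WT, 3 higher and 2 lower in aged WT, 0 in Sesn2-KO and 4 higher between the sham groups. Cd63, a tetraspanin of lysosomes and late endosomes, had 0.73, 0.88 and 0.83 in the comparisons with calls (0.0347, 0.0126 and 0.0206). Its call was lost without any library but young IR 1 in young WT (0.0662 to 0.153), without aged sham 1 or 3 or aged IR 1 in aged WT (0.0504 to 0.0860), and without young sham 1 or Sesn2-KO sham 1 or 2 between the sham groups (0.0686 to 0.0960).

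Among 17 regulators of lysosomal genes and of the lysosomal mTORC1 machinery, Tfec, the macrophage member of the TFEB family, rose after IR in young WT (1.94, adjusted p = 0.0117) and aged WT (1.34, 0.0393) and was higher in Sesn2-KO than young WT sham hearts (1.5, 0.0469). The young call was lost without young sham 1 or 3 or young IR 3 (0.0533 to 0.0713), the aged call without any 1 of its 6 libraries (0.0521 to 0.165) and the sham call without any library but young sham 2 (0.0569 to 0.196). Rragd, a Rag GTPase that carries the amino-acid signal to mTORC1, fell by 0.58 in young WT (0.00661) and by 0.63 in aged WT (0.00375). Mitf, which binds CACGTG, fell by 0.39 in young WT (0.0394), a call lost without any library but young IR 1 (0.0695 to 0.174). These were 1 higher and 2 lower in young WT, 1 and 1 in aged WT, 0 in Sesn2-KO and 1 higher between the sham groups. In Sesn2-KO after IR, where edgeR called 0 of the inhibitors, hydrolases, membrane and sorting genes and regulators, 4, 3, 4 and 3 of them had an unadjusted p below 0.05, DESeq2 called 0, 0, 0 and 1 and limma voom 2, 1, 3 and 1.

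Counting limits some of these values. Genes on the opposite strand overlap Ctsz (Nelfcd), Atp6v1h (Rgs20), Ctsb (Fdft1) and Ctsa (Neurl2 and Pltp), and the strand option of the counting is not given in the sources used here, so their reads may not be fully told apart. In GENCODE M21 on GRCm38, Ctsz lies at chr2:174427493-174439039, Ctsc at chr7:88278085-88310888, Atp6v1h at chr1:5070018-5162529 and Atp6v0d2 at chr4:19876841-19922605, and counts cover the exons of each gene as a whole.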

How the data were processed

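The authors deposited 1 table per library with whole-number counts per gene symbol, not normalized, and per the labels' protocols made from stranded paired-end mRNA libraries. The tools named, per the submitters' processing notes, are TopHat2 and Bowtie2, HTSeq, SAMtools and FastQC, on the mm10 build. Not given in the sources used here were versions, annotation and the strand option of counting. Fragments in no gene (6.12% to 9.06%) or several (0.63% to 0.76%) were left out.

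Counts were fitted with edgeR 4.0.16 in R 4.3.3 (quasi-likelihood, robust, TMM scaling, genes kept by filterByExpr, 1 mean for each of the 6 groups over all 18 libraries), and 9 contrasts were tested with Benjamini-Hochberg adjustment over the 13859 genes, called below 0.05. CPM are TMM-scaled. Nothing in the labels ties libraries to litters or batches, so p-values measure only the spread between these samples, and no 2 replicates agreed within sampling noise (chi-square per degree of freedom 8.56 to 48.8).

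Values in every library are given for called members, for the 3 cathepsins and 3 subunits with the smallest p and for tissue-restricted members, and from each other list up to 3 genes of smallest p are named. Values of Ctsb, Ctss, Ctsf, Atp6v0e2, Atp6v1g2 and Cst3 were added after seeing them. The members and lists were chosen with earlier results of these data known.

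Simulated counts modelled on the young WT comparison of IR and sham (13739 genes) gave back 66% of the planted 2-fold changes and 92% of those of 4-fold. The fits were repeated with upper quartile scaling, size factors of DESeq2, unfiltered genes, DESeq2 1.42.0, limma 3.58.1 voom with quality weights, the compared groups alone, a replicate block and leaving out each library, and, added after seeing the data, the length slope as a covariate and leaving out the 6 length-tilted libraries.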

Additional observations from a re-analysis of the deposited data

Results flagged for a closer look

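For Ctsd, every IR library lay above every sham library in young WT and below every sham library in Sesn2-KO. Neither change passed the test. Of all genes 0.123% showed this pattern, counted for this direction and these comparisons only. Ctsd was picked out from among all members after seeing the data, so that share does not measure how rare such a find is. The young WT libraries of Ctsd stood at 1366, 1323 and 1399 CPM after sham surgery and all higher, at 1563, 1442 and 1476 CPM, after IR (log2 fold change 0.13 ± 0.09, SE). Its Sesn2-KO libraries stood at 1491, 1522 and 1684 CPM after sham surgery and all lower, at 1462, 1388 and 1440 CPM, after IR (-0.13 ± 0.09). The difference of the responses was -0.26 (unadjusted 95% interval -0.54 to 0.02), and edgeR's interaction test gave an adjusted p of 0.913, so the difference did not pass the test.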

How the results depend on the processing

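Counts of called members depended on the setting. In young WT after IR (2 members) they were 1 with upper quartile scaling, 1 with no filter, 10 by limma voom, 0 with the compared groups alone, 7 with the length slope as covariate, 0 without the 6 length-tilted libraries, and 0 to 4 with each library left out in turn. In aged WT (3) they were 2 with upper quartile scaling and 2 with no filter, both without Atp6v1h, 4 by DESeq2, 8 by voom, 1 alone, 7 with the length slope, 0 without the length-tilted libraries and 0 to 4 with a library left out. In Sesn2-KO hearts (0) voom called 1. Between the sham groups (1) they were 0 with DESeq2 size factors, 0 with upper quartile scaling, 4 by DESeq2, 6 by voom, 6 with the length slope, 0 without the length-tilted libraries and 0 with any library left out. The other 5 comparisons had 0 in all settings run. Calls over all genes moved with the setting too, so the swing was not particular to the members. The main fit called 841 genes in young WT, 1054 in aged WT and 708 between the sham groups. With a library left out these counts ran from 270 to 1465, 232 to 1070 and 296 to 462. They were 169, 883 and 617 with the compared groups alone, and 16, 106 and 144 without the length-tilted libraries. With the replicate block, 1 member was called in young WT, 3 in aged WT and 1 between the sham groups, Atp6v0d2 in young WT being lost (adjusted p = 0.0517). Deviations of same-numbered libraries correlated at -0.27 to 0.72, and in no comparison were all 3 pairs over 0.1, so the numbers are not taken to pair samples. The log2 change reversed for Ctsc between aged and young IR hearts without aged IR 1 (-0.0088, and up to 0.36 without another library), for Atp6v0d2 between Sesn2-KO and young IR hearts by voom (-0.28) and without Sesn2-KO IR 1 (-0.11, and up to 1.19 without another library), and for Ctsw in the aged minus young response without young IR 2 (0.27, and down to -2.17 without another library), and the cause was not tested. Of 1851 recomputed values of 119 named genes in a comparison, 1565 kept direction and side of the threshold, 259 lost it, 23 gained it and 4 reversed. The named genes include members not called in the main fit, which count as kept when they stay uncalled. The total therefore does not measure how stable the calls were. With so few libraries, and counts as low as those of Ctsw and Atp6v0a4, small changes were not detectable.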
